A study of Mus musculus with 4 samples.

Results

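The genes of the TNF superfamily ligands Tnf, Lta, Ltb, Tnfsf4, Tnfsf8, Tnfsf9, Tnfsf13b, and Fasl were examined in single-cell RNA-Seq (scRNA-Seq) of cultured mouse splenic B cells. These 8 genes, chosen by symbol, are among 31053 genes in the deposited feature table. According to the labels, the series holds 2 samples of Bregs-CpG and 2 samples of Bregs-TLR, all WT splenic B cells. Both kinds of culture received CpG B ODN 1668, a DNA agonist of TLR9, for 3 days. Bregs-TLR also received LPS, a TLR4 agonist, with PMA and ionomycin, which activate protein kinase C and raise cytosolic calcium, during the last 5 hours. The labels name neither strain nor age. The cells fall into 4 libraries that the barcodes number 5 to 8, and the labels do not say which sample each library number stands for. Values are therefore given per library, and no difference between Bregs-CpG and Bregs-TLR was tested.

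TNF superfamily ligands are made as membrane proteins that assemble in groups of 3 chains and signal through receptors of the TNF receptor superfamily, many of which act on NF-κB or on cell death. In B cells, LTβ (Ltb) anchors LTα (Lta) at the surface, and this complex, acting through the LTβ receptor on stromal cells, organizes lymphoid follicles. TNF (Tnf) is cut from the surface by the protease ADAM17, LTα alone is secreted, and BAFF (Tnfsf13b), a survival factor of B cells, is cut by furin. These 3 genes are called soluble ligands here, and the other 5 membrane ligands, although TNF also signals from the membrane. Of the membrane ligands, OX40 ligand (Tnfsf4) and the ligand of CD137 (Tnfsf9) costimulate T cells, CD30 ligand (Tnfsf8) binds CD30, and Fas ligand (Fasl) triggers apoptosis.

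Tnf, Lta, and Ltb lie next to each other on mouse chromosome 17 (build GRCm38). Ltb (ENSMUSG00000024399, chr17:35194439-35196320) is on the plus strand, and Tnf (ENSMUSG00000024401, chr17:35199381-35202007) and Lta (ENSMUSG00000024402, chr17:35203165-35205351) are on the minus strand. The gap between Ltb and Tnf is 3060 bp and that between Tnf and Lta is 1157 bp, with no other gene in either. Tnfsf9 (ENSMUSG00000035678) is also on chromosome 17, at 57105325 to 57107757. The other members lie on chromosome 1 (Tnfsf4, ENSMUSG00000026700, and Fasl, ENSMUSG00000000817), chromosome 4 (Tnfsf8, ENSMUSG00000028362), and chromosome 8 (Tnfsf13b, ENSMUSG00000031497).

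For these neighbors, which were called between libraries in opposite directions, the 250 bases before their RefSeq starts (GRCm38.p6) are shown 5′ to 3′ along the strand of each gene, with motif matches in capitals. The windows are chr17:35202008-35202257 (minus strand) for Tnf, chr17:35205352-35205601 (minus strand) for Lta, and chr17:35194257-35194506 (plus strand) for Ltb, which reaches into the annotated gene because RefSeq starts Ltb later.
Tnf: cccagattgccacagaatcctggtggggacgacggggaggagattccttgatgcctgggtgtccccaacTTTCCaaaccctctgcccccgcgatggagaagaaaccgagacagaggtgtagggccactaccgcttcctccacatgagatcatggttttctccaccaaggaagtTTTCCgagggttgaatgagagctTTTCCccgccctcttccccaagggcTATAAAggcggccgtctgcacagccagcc
Lta: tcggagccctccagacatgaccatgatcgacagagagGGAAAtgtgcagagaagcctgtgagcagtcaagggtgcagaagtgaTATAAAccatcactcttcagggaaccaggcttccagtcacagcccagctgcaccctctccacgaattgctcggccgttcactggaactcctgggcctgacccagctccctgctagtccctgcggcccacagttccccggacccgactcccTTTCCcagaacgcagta
Ltb: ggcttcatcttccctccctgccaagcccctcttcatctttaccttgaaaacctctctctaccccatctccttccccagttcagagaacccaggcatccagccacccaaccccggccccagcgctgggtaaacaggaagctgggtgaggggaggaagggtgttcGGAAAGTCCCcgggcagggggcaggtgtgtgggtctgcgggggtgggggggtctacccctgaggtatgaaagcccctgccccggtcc
The letters GGAAA, the core of many NF-κB and NFAT sites, were searched on both strands, and TATAAA on the given strand. Tnf held 3 GGAAA, all on the opposite strand (first at -181 to -177 from the start), and TATAAA at -29 to -24. Lta held 2 GGAAA and a TATAAA that lay farther out, at -167 to -162. Ltb held 1 GGAAA at -87 to -83 and no TATAAA, and its GGAAA overlapped the only match among the 3 windows to the NF-κB consensus, at -87 to -78. Over all 32851 promoters, 55.6% held GGAAA, 7.59% TATAAA, and 3.90% the NF-κB consensus. TGANTCA, the AP-1 motif, was in none of the 3 windows and in 6.75% of promoters.

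The 3′ UTR also differed among the members. The AU-rich nonamer TTATTTATT, written as DNA, marks mRNAs that ZFP36 and related proteins bind and send to decay. It occurred 5 times, counting overlaps, in the 764-base 3′ UTR of Tnf, and the 30 bases with most of them (positions 435 to 464 of the UTR) are shown with the nonamers in capitals.
Tnf 3′ UTR: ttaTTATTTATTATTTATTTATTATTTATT
Lta and Tnfsf13b held 1 nonamer each, and Ltb, Tnfsf4, Tnfsf8, Tnfsf9, and Fasl none. Of 20928 genes, 7.65% held at least 1 and 0.196% at least 5.

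Libraries 5, 6, 7, and 8 kept 4196, 4714, 5621, and 4003 cells with at least 1000 genes and under 10% mitochondrial UMIs (18534 of 19920 barcodes). A UMI marks 1 captured mRNA molecule, and levels are UMIs of a gene per 1000000 UMIs of the passing cells of the library (CPM). Since 3′ chemistry counts molecules rather than fragments, CPM was not divided by gene length. The libraries held 44842982 to 63638158 UMIs, with a median per cell of 8752, 8785, 10355, and 10077 and a median mitochondrial share of 7.22%, 7.18%, 4.61%, and 4.65%. Pairs of libraries shared 1 to 8 barcodes, each counted as separate cells. B cell markers were detected in every library, with Cd74 at 5831 to 7135 CPM. Of these markers, Cd79a, Cd79b, Ms4a1, and Pax5 were lower by at least 2-fold in libraries 7 and 8 than in 5 and in 6, and the summed list stood at 13914, 14449, 7388, and 7299 CPM. Cd3e, Cd4, and Cd8a (T cells), Ncr1, Nkg7, and Gzma (NK cells), and Lyz2, S100a8, and S100a9 (myeloid cells) had 0 UMIs in all 4 libraries. Other genes of the T cell list (Cd3d, Trac, and Lat) and of the myeloid list (Itgam, Cd68, and Mpeg1) were detected in every library. At least 1 gene of the myeloid list was found in 12.6%, 13.4%, 8.29%, and 8.77% of cells. The summed lists were at 0.988 to 1.64 CPM for T cells, 8.38 to 14.5 CPM for myeloid cells (mostly Mpeg1), and 0.569 to 5.62 CPM for dendritic cells (Flt3 in libraries 5 and 6). Hbb-bt, a hemoglobin gene, stood at 4.57, 4.30, 218.0, and 284.7 CPM, while Hba-a1 and Hba-a2 had 0 UMIs.

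Ltb was the most abundant ligand in libraries 5 and 6, and Tnf in libraries 7 and 8. Ltb stood at 415.5, 439.8, 7.56, and 10.6 CPM in libraries 5, 6, 7, and 8. Tnf stood at 2.92, 2.89, 24.7, and 25.4 CPM. Libraries 5 and 6 were thus high in Ltb and low in Tnf, and libraries 7 and 8 were the reverse. A difference is called here where it is at least 2-fold and its exact conditional 95% interval excludes equality. Intervals cover counting error only, and with 1 library on each side there is no replicate check.

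Between library 7 and library 5, Ltb was 55.0-fold lower in library 7 (log2 ratio -5.78, interval -5.91 to -5.65) and Tnf 8.46-fold higher (log2 ratio 3.08, interval 2.82 to 3.35). Library 8 against library 6 gave 41.3-fold lower Ltb and 8.80-fold higher Tnf. These changes were opposite in the same libraries, although the genes are neighbors. Between libraries 5 and 6, Ltb differed by 1.06-fold and Tnf by 1.01-fold. Library 8 held 1.41-fold more Ltb than library 7 (log2 ratio 0.49, interval 0.31 to 0.68), a difference under 2-fold. The interval excluded equality but treats UMIs as independent, whereas the 486 Ltb UMIs of library 8 lay in 278 cells. In library 8, 14 cells that clustered with the cells of libraries 5 and 6 (cluster A, described with the clusters) carried 54 of its 486 Ltb UMIs (11.1%). Without the 26 such cells of library 8 and the 3, 7, and 4 of libraries 5, 6, and 7, an alternative chosen after seeing the data, Ltb was at 415.8, 440.6, 7.36, and 8.83 CPM and the log2 ratio of library 8 over library 7 was 0.26.

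Lta was rare in every library, with 8, 16, 44, and 32 UMIs, or 0.178, 0.310, 0.691, and 0.701 CPM. Libraries 7 and 8 were again above 5 and 6, with log2 ratios of 1.95 (7 over 5), 1.97 (8 over 5), 1.16 (7 over 6), and 1.18 (8 over 6), and all 4 were called. Between libraries 5 and 6 the log2 ratio was 0.80, with an interval from -0.51 to 2.23 that includes equality. Tnfsf9 was likewise higher in libraries 7 and 8, at 0.714, 0.968, 1.81, and 1.53 CPM. It was called against library 5 (log2 ratios 1.34 and 1.10) but was under 2-fold against library 6 (0.90 and 0.66).

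Tnfsf13b and Tnfsf8 had the opposite order, but neither was called in any pair. TMM scaling called both in library 7 over 6 (log2 ratios -1.39 and -1.001). Tnfsf13b stood at 0.290, 0.310, 0.126, and 0.153 CPM (7 to 16 UMIs per library), and the interval of every pair included equality. Tnfsf8 stood at 0.535, 0.620, 0.330, and 0.350 CPM, and its largest difference, library 7 over 6, had a log2 ratio of -0.91 (interval -1.78 to -0.07). Tnfsf4 had 0, 0, 7, and 1 UMIs, and Fasl had 1 UMI in library 5 and none in the others. A count of 0 allows up to 0.0669 CPM in library 5 and 0.0581 CPM in library 6 (3 counts), and both genes stayed under the minimum of 10 UMIs in a pair. For Tnfsf4, the interval of library 7 over 5 and over 6 lay above equality (lower bounds 0.02 and 0.23 on the log2 scale), on 7 against 0 UMIs.

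**Figure D1:**
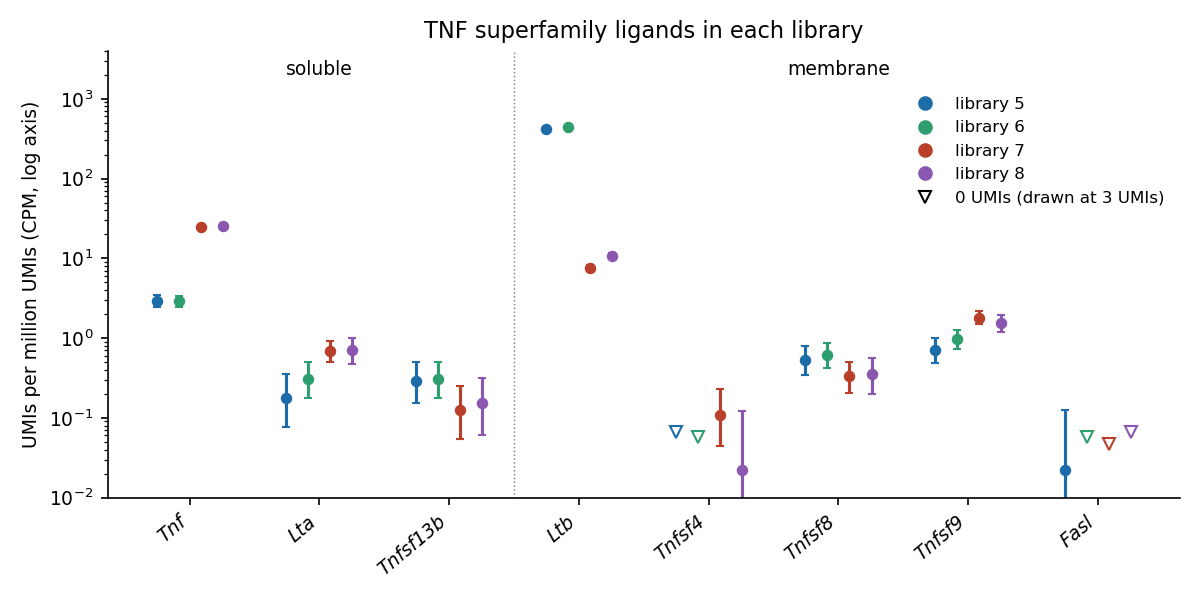
Level of each ligand gene (CPM, log axis) in libraries 5 to 8, soluble ligands on the left and membrane ligands on the right; bars are exact Poisson 95% intervals, and open triangles mark 0 UMIs, drawn at the level of 3 UMIs. Ltb spans 7.56 to 439.8 CPM and Tnf 2.89 to 25.4 CPM, in opposite order.

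Of the 6 members with at least 10 UMIs in a pair, 0 were called between libraries 6 and 5 and 0 between libraries 8 and 7, where 0.851% (0.402% higher and 0.449% lower) and 1.49% (0.445% higher and 1.05% lower) of all genes tested were called. Library 7 over library 5 called 4 of 6 members, beside 32.6% of 13151 genes: Tnf, Lta, and Tnfsf9 were higher (16% of all genes) and Ltb was lower (16.6%). Library 8 over library 5 called the same 4 (31.8% of all genes called, 14.4% higher and 17.4% lower). Against library 6, Tnf and Lta were higher and Ltb lower in library 7 (32.3% called, 15.2% higher and 17.1% lower) and in library 8 (31.6%, 13.6% and 17.9%). The median log2 ratio of the 3 soluble members was 1.95, 1.97, 1.16, and 1.18 in 7 over 5, 8 over 5, 7 over 6, and 8 over 6. That of the 3 membrane members tested was -0.70, -0.61, -0.91, and -0.82, beside 0.12, 0.07, 0.09, and 0.03 over all genes. With 3 genes each, these medians are the ratios of Lta and of Tnfsf8 alone. Neither kind moved together in these pairs. The ratio of the soluble Tnfsf13b was below 0 without being called, and that of the membrane ligand Tnfsf9 was above 0. Of all calls, 49.2% were higher in 7 over 5 and 47.0% in 7 over 6, against 37.5% and 37.0% with library sizes that leave out mitochondrial, ribosomal protein, and immunoglobulin genes.

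Since Ltb outnumbered all other members in libraries 5 and 6, the soluble share of the member UMIs followed it. Soluble ligands made up 0.807%, 0.788%, 72.3%, and 67.7% of the member UMIs in libraries 5, 6, 7, and 8. The summed soluble level was 3.39, 3.51, 25.5, and 26.3 CPM and the summed membrane level 416.8, 441.4, 9.81, and 12.5 CPM, so that the total of the 8 genes was 420.2, 444.9, 35.3, and 38.8 CPM. The sum over the family was thus smaller in libraries 7 and 8, while its soluble part was larger. Without Ltb, the soluble share was 72.7%, 68.8%, 91.9%, and 93.2%, which differ far less. The share also depends on Tnf, since with Tnf counted as a membrane ligand it was 0.111%, 0.139%, 2.31%, and 2.20%. For each Lta UMI there were 2329, 1419.5, 10.9, and 15.2 Ltb UMIs, and 16.4, 9.31, 35.8, and 36.3 Tnf UMIs.

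Most cells of libraries 5 and 6 held Ltb, whereas Tnf was in a minority of cells in every library. Ltb UMIs were found in 84.8%, 85.9%, 6.17%, and 6.94% of cells, and Tnf UMIs in 2.86%, 2.82%, 20.9%, and 21.1%. Cells with Ltb had a mean of 5.24, 5.61, 1.39, and 1.75 Ltb UMIs, so both the share of cells and the number per cell were lower in libraries 7 and 8. The 1% of cells with most Ltb carried 5.60%, 5.85%, 33.9%, and 39.9% of it. In cells thinned to 5000 UMIs each (158, 114, 233, and 157 shallower cells left out), the shares were 75.2%, 76.2%, 3.51%, and 3.93% for Ltb and 1.14%, 1.35%, 10.9%, and 10.7% for Tnf. The differences therefore held at equal depth. Free RNA can give UMIs in cells that do not express a gene, and no class of cells that should lack both genes was at hand to measure it.

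At the thinned depth, 74.3% and 75.1% of cells in libraries 5 and 6 had a membrane ligand only, and 3.90% and 4.13% in libraries 7 and 8. Cells with a soluble ligand only made up 0.371%, 0.261%, 10.5%, and 10.1%, and cells with both kinds 0.941%, 1.28%, 0.687%, and 0.806%. The remaining 24.4%, 23.3%, 84.9%, and 84.9% held none of the 8 genes. For Tnf and Ltb, the odds ratio of joint detection within a library was 0.836, 1.45, 1.51, and 1.62, with 33, 51, 29, and 24 cells that held both. Tnf and Lta were together in 0, 0, 8, and 2 cells, out of 3, 4, 22, and 10 cells with Lta. These counts are sparse and carry no test.

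**Figure D2:**
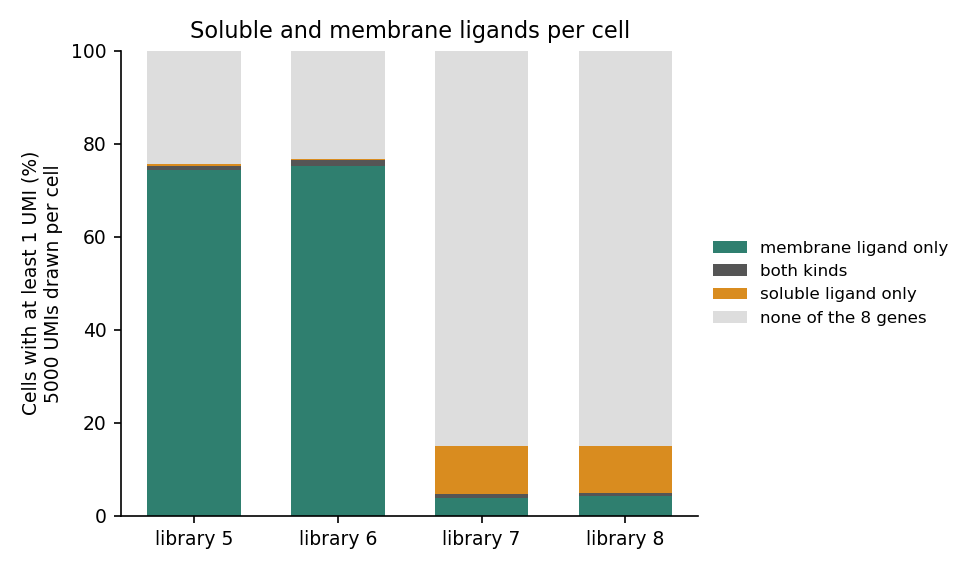
Share of cells (%, 5000 UMIs drawn per cell) in libraries 5 to 8 with at least 1 UMI of a membrane ligand only, of both kinds, of a soluble ligand only, or of none of the 8 genes. Membrane-only cells make up 74.3% and 75.1% in libraries 5 and 6 and 3.90% and 4.13% in libraries 7 and 8.

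To ask whether the levels differed among cells of 1 library, cells were clustered on variable genes from which all ligand, receptor, and related genes of the lists had been removed. Of 7 clusters, A (6963 cells, led by Ltb, Cd2, and Klf2), D (921 cells, led by Ccl3 and Ly6k), and E (881 cells, led by Nusap1 and the proliferation gene Mki67) came almost wholly from libraries 5 and 6. Clusters B (6824 cells, led by Hbb-bt, Cd86, and Il10), C (2162 cells, led by Ung and the replication genes Mcm3 and Mcm5), and F (527 cells, led by the mitotic genes Cdk1 and Ube2c) came almost wholly from libraries 7 and 8. Cluster G (256 cells, led by Jchain and immunoglobulin genes) had cells of all 4, numbering 66, 99, 57, and 34. A cluster held by some libraries only may be those libraries rather than a cell type, so levels were compared within a library, as a description. Ltb was itself the gene that stood out most in cluster A, although it had no part in forming the clusters.

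In libraries 5 and 6, Ltb was highest in cluster A (504.1 and 534.4 CPM), and lower in D (239.8 and 291.0 CPM) and E (200.3 and 188.9 CPM). Tnf had another order in the same cells, with 2.27 and 2.34 CPM in A, 5.87 and 5.56 CPM in D, and 3.88 and 3.73 CPM in E. In D, the cluster led by the chemokine gene Ccl3, Tnf was thus 2.58-fold and 2.37-fold above A (log2 ratios 1.37, interval 0.70 to 2.00, and 1.25, interval 0.60 to 1.86), while Ltb was 2.10-fold and 1.84-fold below it. Cluster E lay above A in Tnf by 1.71-fold and 1.59-fold. Cluster G had 145 and 208 CPM of Ltb and 0 UMIs of Tnf in both libraries, which allows up to 4.18 and 3.00 CPM, above the level in A.

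In libraries 7 and 8, Tnf was level between clusters B (26.0 and 26.4 CPM) and C (25.2 and 27.7 CPM) and lower in F (15.5 and 15.4 CPM). Against B, the log2 ratio of F was -0.75 and -0.78, and both intervals excluded equality. Ltb was at 9.24 and 10.3 CPM in B and lower in C, at 4.14 and 5.06 CPM. In F, Ltb stood at 3.92 CPM in library 7 and 10.0 CPM in library 8. These levels rest on 19 UMIs in 17 cells and 41 UMIs in 23 cells. The shares of F cells with Ltb, 6.05% (interval 3.56 to 9.51) and 9.47% (interval 6.09 to 13.9), had overlapping intervals. Cluster G of library 7 held 7 UMIs of Ltb (8.98 CPM) and 5 of Tnf (6.42 CPM). Every cluster of libraries 5 and 6 with at least 50 cells was above every such cluster of libraries 7 and 8 in Ltb.

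**Figure D3:**
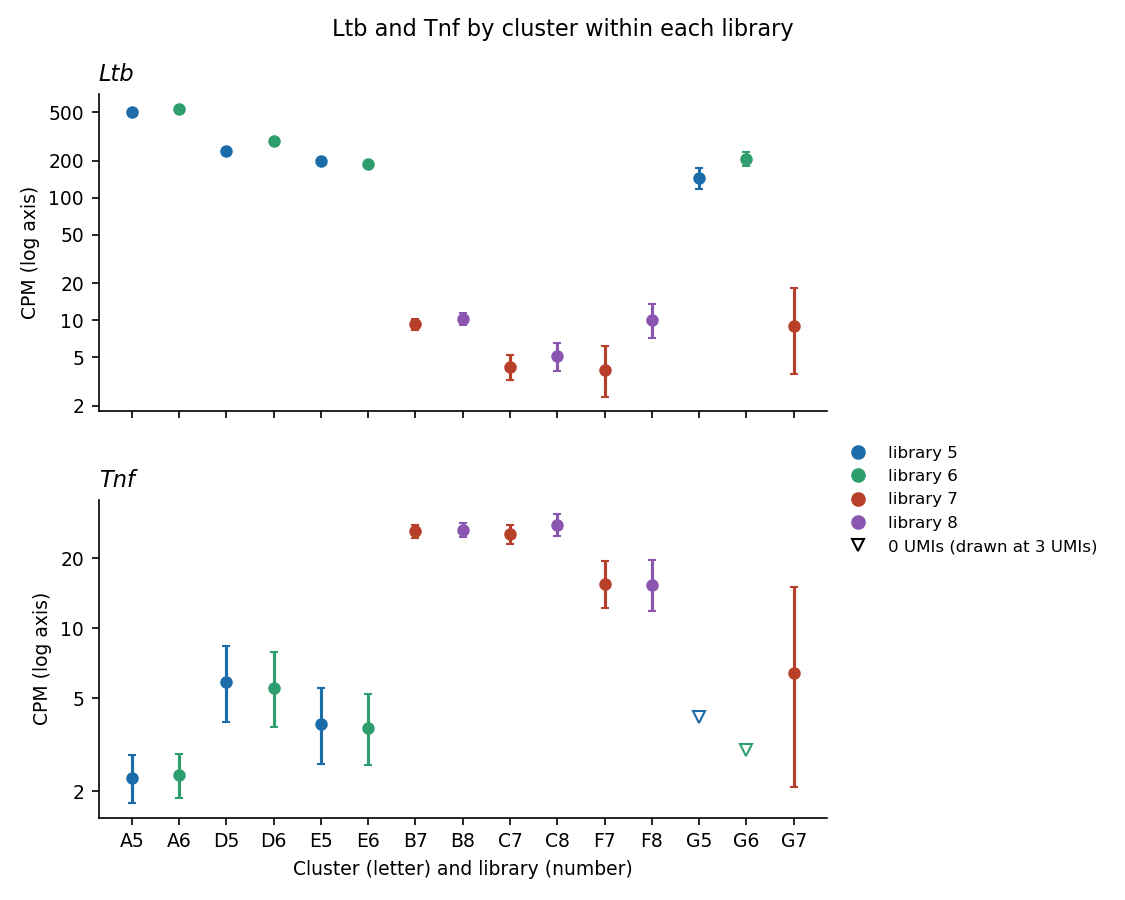
Level of Ltb (upper panel) and Tnf (lower panel) in CPM on log axes for each cluster, named by its letter, within each library, named by its number; only units of at least 50 cells are drawn. Bars are exact Poisson 95% intervals, and open triangles mark 0 UMIs. Ltb runs from 534.4 CPM in A6 to 3.92 CPM in F7, and Tnf is at 2.27 CPM in A5 and 26.0 CPM in B7.

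Across the 15 units of cluster and library, the genes whose log2(CPM + 1) followed Tnf most closely of 9321 genes were Mrpl15 (Pearson r = 0.991), which encodes a mitochondrial ribosomal protein, Nol12 (0.991), and Utp11 (0.990), both of which encode nucleolar proteins. The closest to Ltb were Ostf1 (0.990), Tbc1d10c (0.987), and Arhgdib (0.987). The units share 4 libraries, and likeness within a library was not computed. Mrpl15 stood at 84.7, 87.2, 212.4, and 204.7 CPM.

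Of 11 receptors of the members, 9 were tested and 4 were higher in all 4 pairs of library 7 or 8 over library 5 or 6, where 13.6% to 16% of all genes were higher: Tnfrsf1b, the TNF receptor typical of lymphocytes, Ltbr, Tnfrsf8 (CD30), and Tnfrsf9 (CD137). Tnfrsf1b stood at 3.23, 3.85, 10.1, and 9.85 CPM. Ltbr was sparse, with 2, 2, 28, and 37 UMIs. Tnfrsf9, the receptor of Tnfsf9, stood at 0.0446, 0.0387, 2.67, and 2.80 CPM, on only 2 UMIs each in libraries 5 and 6. Ligand and receptor were thus both higher in libraries 7 and 8, although Tnfsf9 was under 2-fold against library 6. Tnfrsf8 had 0 UMIs in libraries 5 and 6 and 2.20 and 2.45 CPM in libraries 7 and 8, whereas its ligand Tnfsf8 was not higher there.

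The receptor of secreted LTα and TNF on most tissues, Tnfrsf1a, was near the limit of detection at 0.0223, 0.0194, 0.110, and 0.0876 CPM. The BAFF receptors Tnfrsf13b (TACI, 258.8, 270.4, 278.0, and 286.7 CPM) and Tnfrsf13c (BAFF-R, 117.0, 114.1, 76.3, and 76.6 CPM) were the most abundant of the list and within 2-fold in every pair. Tnfrsf17, the BAFF receptor of plasma cells, was at 0 to 0.136 CPM. Fas stood at 6.40 to 7.54 CPM while Fasl was all but undetected. Tnfrsf14 was called in 1 pair, lower in library 8 than in library 5, and Tnfrsf4, the receptor of Tnfsf4, was within 2-fold throughout, at 0.988 to 1.35 CPM.

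**Figure D4:**
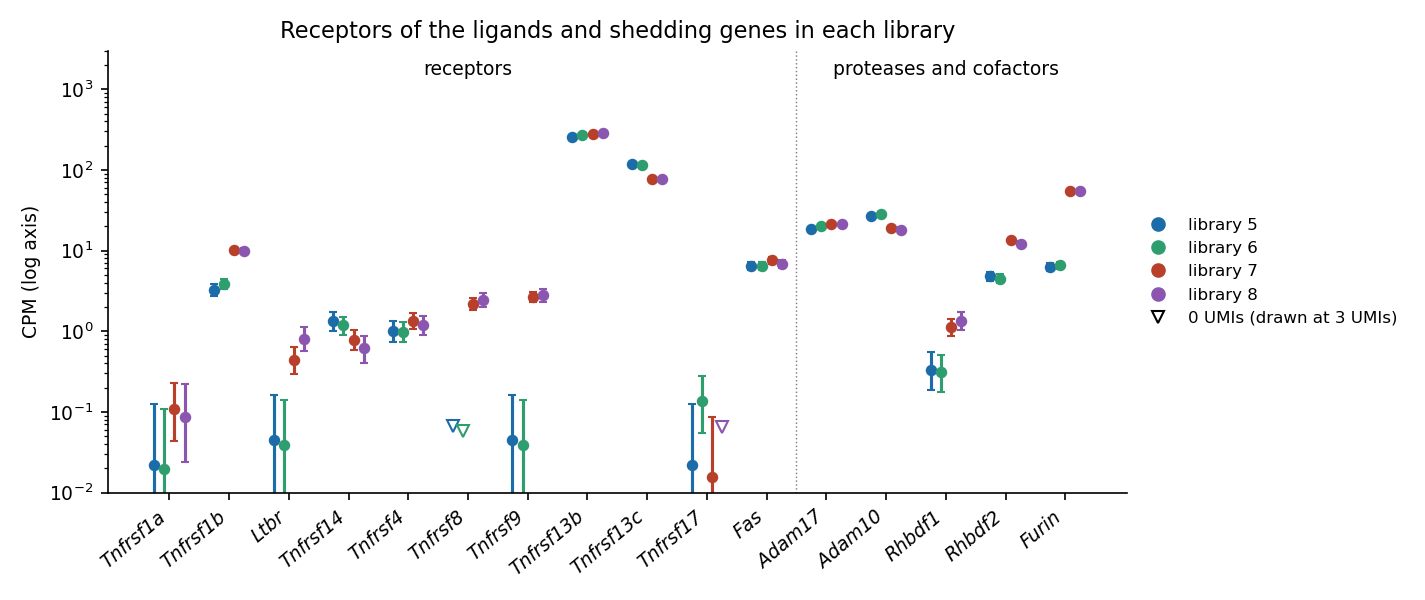
Level (CPM, log axis) of the 11 receptors of the ligands and of 5 genes of ligand shedding in libraries 5 to 8; bars are exact Poisson 95% intervals, and open triangles mark 0 UMIs, drawn at the level of 3 UMIs. Tnfrsf13b and Tnfrsf13c are the highest receptors and within 2-fold in every pair, and Furin is at 6.27 to 6.57 CPM in libraries 5 and 6 and at 55.1 to 55.4 CPM in libraries 7 and 8.

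Of 8 tested genes that act in the release of ligands from the membrane, Furin, Rhbdf1, and Rhbdf2 were higher in all 4 pairs (13.6% to 16% of all genes) and none was lower (16.6% to 17.9%). Furin, which cuts BAFF, stood at 6.27, 6.57, 55.4, and 55.1 CPM, although Tnfsf13b itself was not higher. Rhbdf2, which brings ADAM17 to the surface, stood at 4.79, 4.47, 13.5, and 12.1 CPM, and Rhbdf1 at 0.335, 0.310, 1.12, and 1.36 CPM. Adam17, the TNF sheddase, was within 2-fold at 18.6, 20.1, 21.2, and 21.2 CPM, as was Adam10.

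Of 8 genes of proteins that bind AU-rich elements, Zfp36 (36.7, 34.7, 82.9, and 71.2 CPM) and Elavl1, which encodes the stabilizing protein HuR (70.2, 68.3, 149.7, and 128.0 CPM), were higher in library 7 than in 5 and in 6, and Zfp36 in library 8 than in 6. With 0 to 2 of 8 higher per pair, the calls were near the share of all genes. The median log2 ratio of the 8 genes was nonetheless above that of all genes. It was 0.85 (7 over 5), 0.82 (8 over 5), 0.88 (7 over 6), and 0.81 (8 over 6). Over all genes it was 0.12, 0.07, 0.09, and 0.03. The ratios of Zfp36l1 and Tia1 were negative in these pairs. Of 12 adaptors, Traf1 (51.1, 49.2, 147.0, and 144.4 CPM) was higher in all 4 pairs, which is below the share of all genes. Traf5 (40.4, 45.8, 20.2, and 17.7 CPM) was lower in all but library 7 over 5.

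Of the other ligands of the family, Tnfsf13, Tnfsf14, Cd40lg, and Cd70 had 0 UMIs in all 4 libraries. Only 3 of the 10 were tested in these pairs. Tnfsf10, the death ligand TRAIL, stood at 0.691, 0.600, 1.90, and 1.73 CPM and was higher in the same 4 pairs (13.6% to 16% of all genes). Tnfsf12 and Eda were lower in them (16.6% to 17.9%). Both rest on few counts, with 14, 24, 7, and 3 UMIs of Tnfsf12 and 26, 23, 11, and 4 of Eda. Among 15 other receptors of the family, of which 11 or 12 were tested per pair, Tnfrsf10b, Tnfrsf12a, Tnfrsf21, and Tnfrsf25 were higher and Cd27, Tnfrsf11a, Tnfrsf18, and Tnfrsf19 lower in all 4 pairs, beside the same shares of all genes. Tnfrsf12a, the receptor of Tnfsf12, stood at 1.52, 1.53, 10.4, and 9.02 CPM, and Tnfrsf18 (GITR) at 11.02, 11.7, 1.93, and 2.32 CPM. Cd40 was within 2-fold, at 54.9, 55.2, 36.3, and 32.9 CPM. None of these lists of ligands, receptors, shedding genes, AU-rich element binders, and adaptors had a call between libraries 5 and 6 or between 7 and 8.

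Genes around the Tnf locus were taken by position, to place the opposite differences of Ltb and Tnf in their surroundings. On the side of Ltb, Lst1, a leukocyte-specific gene, stood at 20.5, 17.6, 0.660, and 0.985 CPM, and Aif1 at 2.43, 1.92, 0.141, and 0.197 CPM. Like Ltb, these genes were thus lower in libraries 7 and 8, with log2 ratios of -4.96 and -4.10 in library 7 over 5. Among the other genes around the locus, Bag6, Prrc2a, Nfkbil1, and Ddx39b were within 2-fold in all pairs, and Atp6v1g2 was lower in libraries 7 and 8, at 1.47, 1.41, 0.676, and 0.416 CPM.

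**Figure D5:**
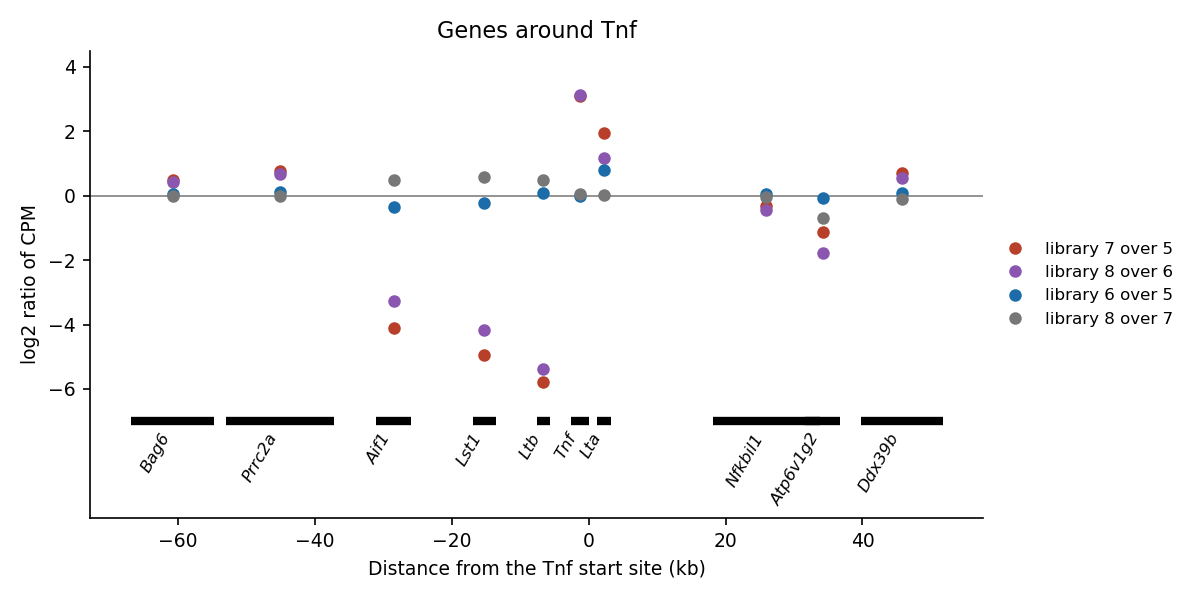
Log2 ratio of CPM for genes with at least 10 UMIs around Tnf against distance from the Tnf start (kb), for library 7 over 5, 8 over 6, 6 over 5, and 8 over 7; black bars mark the genes. Tnf and Lta lie above 0 and Ltb, Lst1, and Aif1 below it in library 7 over 5 and 8 over 6.

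The median mitochondrial share, the summed B cell markers, and Hbb-bt also set libraries 5 and 6 apart from 7 and 8. Their part in the differences of Ltb and Tnf was not tested. A mitochondrial limit of 5% cannot measure that part, because it keeps few cells of libraries 5 and 6 and most cells of libraries 7 and 8. In cells under 5% mitochondrial UMIs (143, 207, 3545, and 2510 cells), the log2 ratio of Ltb was -5.01 in library 7 over 5 and -5.01 in 8 over 6, and that of Tnf was 2.52 in 7 over 6 and 2.62 in 8 over 6. Library 5 then held 0 UMIs of Tnf, so its ratio is not given, and 232.2 CPM of Ltb instead of 415.5. Library 6 held 9 UMIs of Tnf and 2 of Lta. The log2 ratios of Lta against library 6 were -0.77 (7 over 6) and -0.37 (8 over 6) there. With 2 UMIs in library 6, they cannot tell whether the order of Lta held. Cells with at least 2 genes of the T cell, NK cell, myeloid, or dendritic list numbered 2, 0, 88, and 1 and held at most 3% of the UMIs of any member.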

How the data were processed

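The authors prepared 10x Genomics Chromium 3′ v3 libraries and, per the labels and the paper's methods, called cells and counted UMIs with Cell Ranger (version 3.1.0) on mm10 with Ensembl 93 genes, then combined libraries with CellRanger aggr, which evens out depth. The deposited values are whole UMI counts per gene and cell, without log transformation. Any evening of depth by CellRanger aggr is already in them, so the depths given here may differ from those sequenced. Of 35989 matrix columns, 19920 have a barcode. The barcodes were put on the last columns, which is inferred: within these, the sharpest shift in expression lay exactly where library 7 would start (percentile 100) and that of library 8 was at percentile 98.2, but library 6 was at percentile 81.5. The 16069 columns without barcodes were not used here.

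Members and lists were chosen with earlier results of these data known. Cells with at least 1000 genes and under 10% mitochondrial UMIs were kept (559 fell short on genes and 1110 exceeded the mitochondrial limit). No doublet caller was run; leaving out cells at or above the 99th percentile of UMIs of their library was tried instead. UMIs were summed per library or cluster. Intervals at 95% were exact Poisson (levels), Clopper-Pearson (shares), and exact conditional (ratios), computed with SciPy (version 1.17.1); genes needed 10 UMIs in a pair. The procedure was tested on simulated counts, drawn as independent Poisson counts as the intervals assume. That test cannot show how the intervals behave with spread among cells or libraries. Seurat (version 5.3.0) formed clusters from 2000 variable genes, of which 1984 were used, 20 principal components, 20 neighbors, and resolution 0.3. The genes named were all members and lists, and for members with at least 500 UMIs the 3 genes of highest correlation. Some genes of the marker lists and clusters are not reported here. Locus neighbors were chosen later, by position. The edgeR comparison of Bregs-TLR with Bregs-CpG was planned for the case that barcodes identify samples, and was not run. Gene positions are GENCODE vM21; promoters are RefSeq's, found for 6 members and not for Tnfsf4 and Tnfsf9.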

Additional observations from a re-analysis of the deposited data

How the results depend on the processing

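The called log2 ratios of Tnf and Ltb stayed called in the same direction in all 38 and 40 values that the alternatives gave. Of the 136 values for called ratios of all members, 4 (Lta and Tnfsf9) no longer passed and 2 reversed. Of the 218 values for ratios not called, 9 passed the limits and 11 changed sign, 5 of them for Tnf between libraries 6 and 5 or 8 and 7. The reversed calls were Lta over library 6 with a mitochondrial limit of 5%, at -0.77 (library 7) and -0.37 (library 8), on only 2 Lta UMIs in library 6. That limit left 143 and 207 cells in libraries 5 and 6, gave no ratio of Tnf or Lta over library 5, where both had 0 UMIs, called 2 members in library 7 over 5 and 2 in 8 over 5, and put the soluble share at 0%, 1.70%, and 70.4% in libraries 5, 6, and 8. Thinning to 5000 UMIs put it at 0.583%, 0.644%, and 70.3% in libraries 5, 6, and 7, leaving out cells in clusters held mainly by other libraries at 71.0% in library 8, and counting Tnf as a membrane ligand at 0.111%, 0.139%, 2.31%, and 2.20%. TMM scaling called 5 members in library 7 over 6 instead of 3, adding Tnfsf13b (-1.39) and Tnfsf8 (-1.001). With library sizes that leave out mitochondrial, ribosomal protein, and immunoglobulin genes, the median of all genes in 7 over 5 moved from 0.12 to -0.07, and Tnfsf9 in 8 over 5 (0.95) and Lta in 7 over 6 (0.99) fell just under 2-fold, while Tnfsf13b in 7 over 5 (-1.40) and 7 over 6 (-1.47) and Tnfsf8 in 7 over 6 (-1.08) were called. Tnfsf13b in 7 over 6 was also called over all barcodes (-1.32) and in cells below the 99th percentile of UMIs (-1.33). Tnfsf9 in 7 over 6 was called in cells thinned to 5000 UMIs (1.86 against 0.913 CPM). It was also called in cells without a UMI of T cell, NK cell, and myeloid markers (1.83 against 0.889 CPM). The causes were not tested. Other cluster settings moved the highest cluster level of a member in 11 of 32 values, with Ltb in none. Tnf moved in each of these settings, from cluster C to a cluster that shared most of its cells with B. At resolution 0.5, that cluster had 2313 cells, 99.9% of them from B, and Tnf at 31.3 CPM. No paired analysis was possible because the barcodes carry no sample or replicate number. Depth limits Lta, Tnfsf13b, Tnfsf8, Tnfsf4, and Fasl most, with 1 to 100 UMIs over all libraries. Tnf over the 4 libraries together was at 14.6 CPM, and at 10.1 to 18.6 CPM with 1 library left out, and Ltb at 205.6 and at 127.1 to 294.3 CPM.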

Other observations

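Libraries 5 and 6 lay close to each other and apart from libraries 7 and 8 in several values. Ltb was at 415.5, 439.8, 7.56, and 10.6 CPM, Tnf at 2.92, 2.89, 24.7, and 25.4 CPM, Furin at 6.27, 6.57, 55.4, and 55.1 CPM, and Hbb-bt at 4.57, 4.30, 218.0, and 284.7 CPM in libraries 5, 6, 7, and 8. Between libraries 6 and 5, 0.851% of genes were called, and between 8 and 7, 1.49%, against 31.6% to 32.6% in the other pairs. Which libraries hold Bregs-CpG or Bregs-TLR is not given by the labels, so these values are not assigned to a condition.

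Cells that clustered with the cells of other libraries were few (3, 7, 4, and 26 in libraries 5, 6, 7, and 8). In library 8, 14 such cells of cluster A held 54 Ltb UMIs and 0 Tnf UMIs, 7 of cluster D held 17 Ltb UMIs and 1 Tnf UMI, and 5 of cluster E held 14 Ltb UMIs and 0 Tnf UMIs.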
